A study of Mus musculus with 30 samples.

Results

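Cerebral cortex of mice heterozygous for COX-2 (HET) was compared with cortex of COX-2 wild-type (WT) mice, by taking the 3 arrays of each of these groups out of the 30 arrays of the series. All 16896 cDNA probes of the membrane were read on these 6 arrays. The mice were 12 weeks old, on a mixed C57BL/6 and 129/Ola background, fed without restriction and kept under a 12/12 light cycle. HET mice carry 1 disrupted copy of the COX-2 gene in every cell, so no cell type or time point limits the deletion, and they received no treatment. COX-2 KO cortex (3 arrays) and the HET and WT hippocampus (6 arrays) serve below as points of reference. The methods describe the wild-type mice as offspring of wild-type matings taken from the heterozygous colony, while the origin of the heterozygous mice is not given in the sources used here. The methods speak of 3 mice per group but also of triplicate hybridisation, so whether the 3 arrays of a group stand for separate mice is not settled, and the p-values measure the spread between arrays.

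COX-2, encoded by Ptgs2, oxidises arachidonic acid that phospholipases release from membranes to the precursor of the prostaglandins, thromboxane and prostacyclin. In forebrain it is made by excitatory neurons at rest, rises with synaptic activity, and supplies prostaglandin E2. A heterozygote keeps an intact copy, so its cortex asks what a reduced dose of the gene, rather than its loss, goes with. No probe on the membrane was found for Ptgs2 or Ptgs1 by symbol or gene ID, and the dose of the transcript could therefore not be checked on these arrays.

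Each value is a Z score, the natural log intensity of a probe less the mean of the array and divided by the SD of the array, so differences in Z are in SDs and give no fold. Every pair of WT arrays correlated with r between 0.987 and 0.992 across probes, every pair of HET arrays with r between 0.988 and 0.990, and HET with WT arrays with r between 0.985 and 0.988. No row held identical values on any pair of the 6 arrays. Array medians lay between -0.0721 and -0.0479. Probes with a mean Z above 0 over the 6 arrays were taken as expressed, which left 8011 probes, 4524 of them with 1 gene symbol, for 3865 genes.

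The neuronal genes on the membrane were read above the array mean, with a mean Z over their 7 probes of 0.346 to 0.408 in WT and 0.398 to 0.406 in HET cortex. Among them Tubb3, neuronal tubulin, lay at 1.12, 1.12 and 1.27 in WT and 1.13, 1.15 and 1.35 in HET. The astrocytic list of 6 probes lay at 0.151 to 0.284 in HET and 0.208 to 0.268 in WT, with its members divided, Aldoc and Gja1 lower in mean in HET and Glul and the brighter Slc1a3 probe higher. The deep-layer markers (4 probes, Foxp2 among them) and the striatal markers (2 probes) all had means below 0, and no marker of GABAergic interneurons was on the membrane. The hippocampal list, with 3 of 9 probes above 0, did not set the regions apart, at -0.412 to -0.351 in HET cortex, -0.374 to -0.291 in WT cortex and -0.361 to -0.304 in WT hippocampus. The cortical label thus has few defining markers to rest on. The blood list of 19 probes lay at 0.289 to 0.447 in HET and 0.330 to 0.346 in WT cortex.

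One HET array stood apart. Ttr, transthyretin, the leading transcript of the choroid plexus, was at 0.212, 0.170 and 0.215 in the WT arrays and at 0.3002, 0.186 and 1.59 in the HET arrays, so that the third HET array was high and the other two lay near WT. The z ratio of Ttr, 4.596, was beyond that of every called probe, but its spread among HET arrays left it uncalled. Otx2, the other choroid plexus marker, was below 0 on all 6 arrays. In hippocampus Ttr was uneven too, at 2.36, 1.97 and 0.402 in WT. The mean of the choroid plexus list there was -0.104 to 0.713 in HET arrays. What this adds to the comparison of regions was not tested. In cortex the third HET array also had the highest blood-list mean, 0.447. The total of calls, the counts of some lists and the comparison of regions are therefore given below with and without it.

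By the study's own rule, 261 of the 8011 expressed probes (3.26%) differed between HET and WT cortex, 110 higher (1.37%) and 151 lower (1.88%) in HET. The rule asks for a mean Z above 0, a Z test P under 0.05 and a z ratio beyond 1.5 in size, where the z ratio expresses the HET minus WT difference in units of 0.107, the SD over all probes of that difference. The called differences were small, 0.161 to 0.409 in Z with a median of 0.189. In 242 of the called probes the 3 HET arrays did not overlap the 3 WT arrays, against 16.3% of all expressed probes, although the rule itself favours such probes. The z ratio sizes nearest the threshold were 1.5028 on the called side and 1.49982 on the other. Under limma with Benjamini-Hochberg adjustment over the same probes, 0 of 8011 passed an adjusted p of 0.05 (0%), the smallest adjusted p was 0.243, and 699 (8.73%) had an unadjusted p under 0.05, 297 of them higher in HET (3.71%). The smallest p that an exact permutation test could reach with these group sizes is 0.1. In what follows "called" means called by the study's rule. Without the third HET array 147 probes were called, 53 higher and 94 lower, and 118 of the 147 were among the 261. These 147 were 1.84% of the 7997 probes expressed on the 5 arrays, and belonged to 93 named genes.

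**Figure D1:**
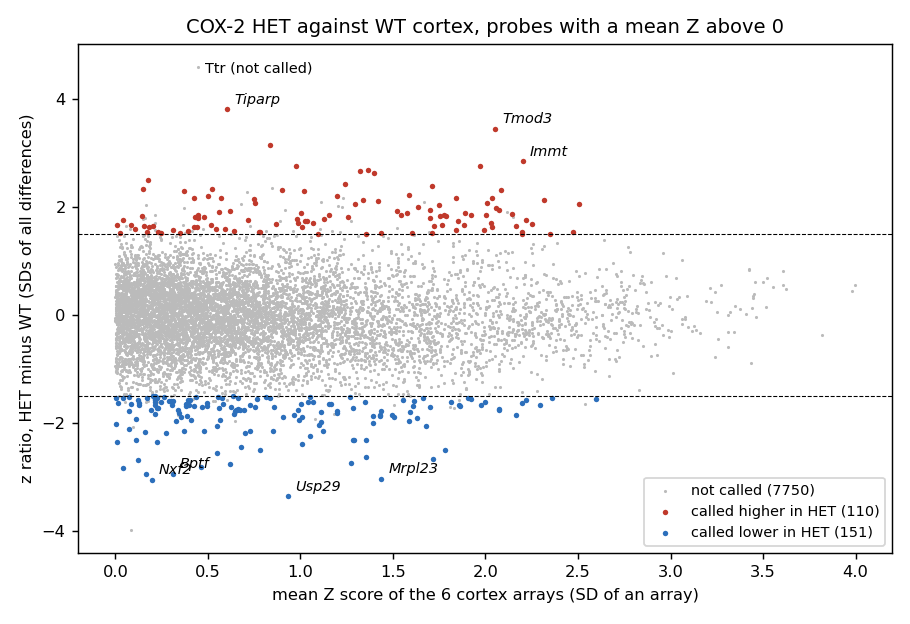
Each point is a probe with a mean Z above 0 (horizontal axis, in SDs of an array), plotted against its z ratio for HET minus WT cortex; dashed lines mark 1.5 and coloured points also have a Z test P under 0.05. Tiparp and Tmod3 lead the 110 probes called higher and Usp29 the 151 called lower, and Ttr at 4.596 is not called.

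The called probes belonged to 143 named genes, 62 higher and 82 lower, with Tram1, a translocon-associated membrane protein, counted in each direction. The leading genes were ranked only among called probes without overlap between HET and WT arrays, so their separation was a condition of the choice. They were spread over many functions. Among the higher were Tiparp, a poly(ADP-ribose) polymerase induced through the aryl hydrocarbon receptor, Tmod3, which caps actin filaments, and Immt, which shapes mitochondrial cristae. Among the lower were Usp29, an imprinted deubiquitinase, Nxf2, an mRNA export factor, Mrpl23 of the mitochondrial ribosome and Bptf, the large subunit of the NURF chromatin remodeller.

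Upstream sequence is shown for 3 of these genes, the leading gene in each direction and Slc6a13, the GABA transporter that the study followed, so that a reader can see what lies at their start sites. The windows span the annotated start, on GRCm38.p6 (RefSeq), all on the plus strand, 5′ to 3′. Tiparp lies at chr3:65528197-65528496, Usp29 at chr7:6730333-6730632 and the first of the 3 listed Slc6a13 windows at chr6:121300038-121300337. Capitals mark 2 motifs searched on both strands, GCGTG, the core of the xenobiotic response element that the aryl hydrocarbon receptor binds, and the GC box GGGCGG. Their reverse complements CACGC and CCGCCC count as matches.
Tiparp: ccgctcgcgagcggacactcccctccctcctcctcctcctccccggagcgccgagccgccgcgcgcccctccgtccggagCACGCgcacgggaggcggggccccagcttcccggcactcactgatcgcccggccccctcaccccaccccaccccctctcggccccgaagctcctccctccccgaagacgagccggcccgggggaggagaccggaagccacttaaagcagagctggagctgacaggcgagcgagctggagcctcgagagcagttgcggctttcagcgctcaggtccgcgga
Usp29: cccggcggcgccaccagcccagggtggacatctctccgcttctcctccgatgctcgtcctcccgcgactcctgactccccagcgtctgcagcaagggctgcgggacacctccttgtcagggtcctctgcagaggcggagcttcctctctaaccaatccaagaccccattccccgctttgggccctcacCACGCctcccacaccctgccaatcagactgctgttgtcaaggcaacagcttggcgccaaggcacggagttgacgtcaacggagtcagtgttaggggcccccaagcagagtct
Slc6a13: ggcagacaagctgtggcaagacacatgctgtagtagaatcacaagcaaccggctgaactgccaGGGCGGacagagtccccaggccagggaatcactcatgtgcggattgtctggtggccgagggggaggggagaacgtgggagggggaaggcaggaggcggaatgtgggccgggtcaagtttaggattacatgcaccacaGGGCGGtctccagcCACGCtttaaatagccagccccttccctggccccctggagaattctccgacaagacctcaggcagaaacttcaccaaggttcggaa
The Tiparp and Usp29 windows each hold 1 GCGTG core and 0 GC boxes, and the Slc6a13 window shown holds 1 core and 2 GC boxes. The other listed Slc6a13 windows, not shown, hold 0 cores and 0 GC boxes. Of the 32851 promoter windows of the table, 32.4% hold the core and 35.7% the GC box on either strand. The cyclic AMP response element TGACGTCA, present in 1.79% of windows, has 1 match in the Usp29 window and 0 in the Tiparp and Slc6a13 windows, and was left in lower case. Tmod3 has no window in the table used.

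Tiparp was read at 0.553, 0.386 and 0.260 in WT and at 0.7998, 0.879 and 0.747 in HET cortex. All HET arrays lay above all WT arrays, and the difference of 0.409 was the largest of any called probe (z ratio 3.82). The other two Tiparp probes did not share it, with z ratios of 0.20 for a bright probe and -1.20 for a probe below the array mean. Tmod3 gave 1.91, 1.96 and 1.74 in WT and 2.19, 2.26 and 2.26 in HET, a z ratio of 3.46 with no overlap. Its other two probes, below the array mean, had z ratios of -0.33 and 0.66. Immt, the core subunit of the MICOS complex at crista junctions, gave 2.10, 1.96 and 2.08 in WT against 2.36, 2.44 and 2.27 in HET (z ratio 2.86). These 3 genes stayed called when any 1 of the 6 arrays was left out.

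The other 7 of the 10 highest genes had varied functions. Anapc7, a scaffold subunit of the anaphase-promoting complex, lay at 1.59 ± 0.146 in WT and 1.84 ± 0.0253 in HET (SD, n = 3). Ube2s, the conjugating enzyme that extends ubiquitin chains for the same complex, was at the array mean in WT, with -0.0437, 0.0767 and 0.0442, and above it in HET, with 0.356, 0.225 and 0.251. Both sets of arrays were separate. Polr2d, a subunit of RNA polymerase II, went from 0.777 ± 0.122 to 1.03 ± 0.0994 (SD, n = 3). Mapk13, the delta form of p38 kinase, had 0.959, 0.872 and 0.652 in WT and 1.07, 1.32 and 0.979 in HET, so that the lowest HET array was 0.979 and the highest WT array 0.959. Its z ratio of 2.76 was not called without WT replicate 2, WT replicate 3, HET replicate 1 or HET replicate 2. Anapc7 was not called without WT replicate 1 or WT replicate 3. Crybg3, Rbm27 and Tdrd9 completed the 10 highest, with z ratios of 2.69, 2.68 and 2.64. Tdrd9, a helicase known from germ-line transposon silencing, was not called without WT replicate 1 or HET replicate 3, and Rbm27, an RNA-binding protein, without WT replicate 2 or HET replicate 3.

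Among the lower genes Usp29 led, at 1.08, 1.26 and 1.003 in WT and 0.729, 0.857 and 0.676 in HET cortex (z ratio -3.35). No HET array reached the lowest WT array. Nxf2 went from 0.440, 0.341 and 0.298 to -0.0231, 0.131 and -0.00667, at the array mean, and had the smallest unadjusted limma p of the named genes, 0.000124. Bptf gave 0.532, 0.524 and 0.344 in WT and 0.0605, 0.189 and 0.206 in HET (z ratio -2.94). Its 3 further probes did not share this, with z ratios of 0.04 and 0.94 for the expressed ones and 0.22 for a probe below the array mean. Ppp4r2, the regulatory subunit that directs protein phosphatase 4, went from 0.193 ± 0.105 to -0.111 ± 0.0444 (SD, n = 3), and was not called without WT replicate 2. Ankle2, needed to rebuild the nuclear envelope after mitosis, went from 0.611 ± 0.112 to 0.310 ± 0.116.

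Arl1, a small GTPase of the trans-Golgi network, had little spread among replicates. Its WT arrays lay at 1.23, 1.22 and 1.21 and its HET arrays at 0.999, 1.03 and 0.987 (difference -0.212, SE 0.0385, limma adjusted p = 0.243). A further Arl1 probe below the array mean had a z ratio of 0.83. Scrn3, a secernin, had 0.736, 0.716 and 0.613 in WT against 0.519, 0.376 and 0.351 in HET, and its other probe, which is below background, pointed the same way with a z ratio of -2.41. Ctdspl, a small C-terminal domain phosphatase, and Plxdc2 had z ratios of -2.62 and -2.65. Each was lost when WT replicate 1 or WT replicate 2 was left out, and Ctdspl also without HET replicate 2 or HET replicate 3. Of the 55 called probes named by rule or list, 22 were higher and 33 lower, 14 stayed called under all 15 alternatives, and 20 were not called without HET replicate 3.

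**Figure D2:**
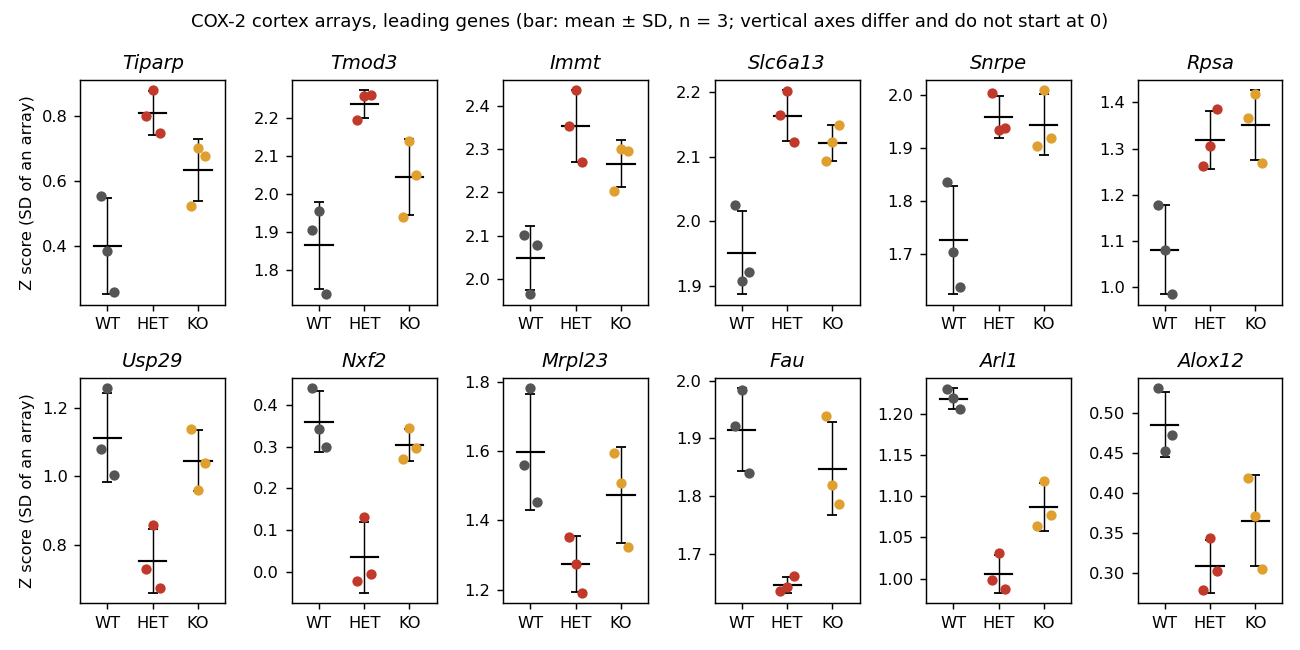
Z scores (in SDs of an array) of the 3 WT, 3 HET and 3 KO arrays of COX-2 cortex for 6 genes called higher and 6 called lower in HET; points are arrays, horizontal bars means and vertical bars SDs, and the vertical axes differ between genes and do not start at 0. The HET arrays lie wholly above or wholly below the WT arrays in each panel, and for Arl1 the KO arrays lie between them.

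The ubiquitin system held called probes in both directions. Of its 48 expressed probes (70 genes on the membrane), 3 were higher and 3 lower, or 12.5% against 3.26% of all expressed probes. The median difference of the list was 0.026, against -0.00254 over all expressed probes. Besides Usp29, the lower members were Ube2g1, a conjugating enzyme, at 0.234 ± 0.0399 in WT and -0.0130 ± 0.120 in HET (SD, n = 3), and Usp38, a deubiquitinase, at 0.587 and 0.407. The higher members besides Ube2s were Sumo2, a ubiquitin-like modifier, at 0.941 ± 0.0680 and 1.13 ± 0.0855, and the deubiquitinase Usp37, at 0.337 and 0.511. Sumo2 was not called without WT replicate 3 or HET replicate 2. Without the third HET array 4 of 50 expressed probes of the list were called, 2 in each direction, and after a correction for row order, described below, 1 higher and 3 lower.

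Psmc1, an ATPase of the 19S proteasome base, was the one gene with several expressed probes that were all called in the same direction. Its first probe gave 0.826, 0.777 and 0.702 in WT and 0.558, 0.575 and 0.606 in HET, and its second gave 0.691, 0.698 and 0.620 against 0.429, 0.514 and 0.537. Neither probe had an overlap between genotypes. The z ratios were -1.76 and -1.65, and both probes were lost without WT replicate 1, the second also without WT replicate 2 or HET replicate 1. The other proteasome subunits did not share this, since 21 of the 34 expressed probes had a higher mean in HET and the median was 0.019.

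Most probes for cytosolic ribosomal proteins had a slightly higher mean in HET, and few were called. Of the 119 expressed, 81 had a higher mean in HET, with a median difference of 0.036, and over all expressed probes 3856 of 8011 did so, with a median of -0.00254. Only 3 of the 119 (2.52%) were called, 2 higher and 1 lower. Without the third HET array 1 higher and 2 lower of 117 were called, and with the row-order correction also 1 higher and 2 lower. Rpsa, a protein of the small subunit, gave 1.18, 1.08 and 0.986 in WT and 1.26, 1.31 and 1.39 in HET, without overlap. Its 5 further probes had z ratios of 0.64 to 1.25, all positive and none called. Rpl29 lay at -0.0822 ± 0.0193 in WT and 0.0977 ± 0.0544 in HET (SD, n = 3), and was not called without WT replicate 2 or any of the 3 HET arrays. Fau, a ubiquitin-like protein fused to ribosomal protein S30, went the other way, with 1.92, 1.98 and 1.84 in WT and a narrow 1.64, 1.64 and 1.66 in HET. The other 3 Fau probes were divided, at z ratios of 0.74, -0.96 and 0.58.

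Translation factors gave similar counts, with 37 of 52 expressed probes higher in mean and a median of 0.027, but the called member was Eif1b, a start-site selection factor, which was lower (2.26 ± 0.0553 in WT, 2.06 ± 0.0598 in HET). It was lost without HET replicate 3. Mitochondrial ribosomal proteins did not share this, with 11 of 27 probes higher in mean and a median of -0.007. Mrpl23 was the member called, at 1.56, 1.78 and 1.45 in WT and 1.35, 1.28 and 1.19 in HET (z ratio -3.02), and its second probe, which is below background, had -0.17.

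In oxidative phosphorylation 35 of 50 expressed probes had a higher mean in HET and the median was 0.032. Atp5mpl, a small membrane subunit of ATP synthase, was called lower. Its WT arrays were at 0.995, 1.001 and 1.02 and its HET arrays at 0.798, 0.851 and 0.759, with little spread in WT. Ndufb10, an accessory subunit of complex I, was called higher at 1.42 ± 0.0956 and 1.63 ± 0.0153 (SD, n = 3), and was lost without WT replicate 2. In glycolysis 13 of 15 probes had a higher mean, with a median of 0.060. Ldha, lactate dehydrogenase A, was the called member, with 0.634, 0.713 and 0.729 in WT and 0.876, 0.800 and 0.897 in HET, and Aldoa, an aldolase, missed the threshold with a z ratio of 1.48. Ldha was lost without WT replicate 1, HET replicate 1 or HET replicate 3. Aldoc, the astrocytic aldolase, had a z ratio of -0.85, and the median of the glycolysis list was 0.018 once the trend along the table described below was taken out.

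Within the arachidonic acid pathway, 14 of 22 probes were expressed and 1 was called. Alox12, the lipoxygenase that turns arachidonic acid into 12-HPETE, gave 0.531, 0.453 and 0.473 in WT and 0.279, 0.344 and 0.302 in HET. The groups were separate (z ratio -1.66), and the call was lost without WT replicate 1, HET replicate 1 or HET replicate 3. Alox5ap, which presents arachidonic acid to 5-lipoxygenase, was at 0.323, 0.289 and 0.315 in WT and 0.401, 0.451 and 0.416 in HET, a separate but uncalled difference (z ratio 1.06). The phospholipases Pla2g4a and Pla2g6 had z ratios of -0.55 and 0.53. The prostaglandin E synthases Ptges, Ptges2 and Ptges3 had z ratios of -0.87, 0.28 and -0.52, and Ptgis, prostacyclin synthase, -0.78. Ptger2, a prostaglandin E2 receptor, had a z ratio of 0.50. The median difference of the list was -0.032, with 6 of 14 probes higher in mean.

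The study followed 9 genes by quantitative PCR in the null mice, and 1 of them was called in HET cortex, or 2 with the row-order correction described below. Slc6a13, a GABA transporter of the meninges and blood-brain barrier that the study names GAT3, gave 2.02, 1.91 and 1.92 in WT and 2.16, 2.20 and 2.12 in HET (difference 0.212, SE 0.0459, z ratio 1.98). The groups did not overlap, and the call held with any array left out. With the row-order correction the z ratio fell to 1.525, just past the threshold of 1.5. Because Slc6a13 also marks meninges, the other 12 meningeal probes were averaged, and lay at 0.386 to 0.402 in WT and 0.401 to 0.428 in HET arrays. The part of meningeal tissue in this difference was not tested.

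The lipid oxidation genes of that set differed little. Hsd17b10, a mitochondrial dehydrogenase, was at 1.07, 1.15 and 1.13 in WT and 1.24, 1.16 and 1.18 in HET (z ratio 0.72). Acat1, which joins acetyl-CoA units, and Acly, which makes cytosolic acetyl-CoA from citrate, had z ratios of 0.14 and 0.21, each reversed when certain arrays were left out. Of the 15 expressed probes of acetyl-CoA and fatty acid oxidation, 0 were called. Mat2b, the regulatory subunit of methionine adenosyltransferase, had 0.020, -0.054 and 0.025 in WT and 0.230, -0.014 and 0.175 in HET, an overlapping pair of groups with a z ratio of 1.25 that became 1.504, a call, with the row-order correction, and its second probe, below background, had -1.41. Jak1 and Jak2, the kinases of cytokine receptors, had z ratios between -0.67 and 0.41 on their expressed probes. Ahcy, the hydrolase next in the methionine cycle, was below background (z ratio 0.10), and no probe for Gabrb1 was found.

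Signalling kinases had 4 called probes of 48 (8.33%, against 3.26% of all expressed probes), 3 without the third HET array and 2, both lower, with the row-order correction. Mapk13 was higher, and the other 3 were lower. Mtor, the growth-regulating kinase, had 0.219, 0.237 and 0.195 in WT and 0.109, 0.0611 and -0.0431 in HET. Map4k5 went from 0.334 ± 0.146 to 0.161 ± 0.0242, and Csnk1g1, a casein kinase, from 0.895 ± 0.0998 to 0.733 ± 0.0209 (SD, n = 3). Each lower call was lost when at least 1 array was left out, Mtor without WT replicate 2 or HET replicate 3, Map4k5 without WT replicate 1 or 2 or HET replicate 1 or 2 and Csnk1g1 without WT replicate 1 or 2 or HET replicate 1 or 3.

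The list of chromatin regulators, which does not hold Bptf, had 3 called probes of 68 (4.41%, near the 3.26% of all expressed probes). All of them were lower, and 0 were called without the third HET array and 1 with the row-order correction. Dnmt3a, a de novo DNA methyltransferase, had 0.164, 0.306 and 0.182 in WT and 0.0309, 0.0507 and 0.0369 in HET. Smarcb1, a core subunit of SWI/SNF remodellers, went from 1.44 ± 0.0805 to 1.27 ± 0.0536 and Cbx7, a Polycomb protein, from 0.581 ± 0.0992 to 0.406 ± 0.0591 (SD, n = 3). All 3 calls were lost without HET replicate 3, that of Dnmt3a also without WT replicate 2, that of Cbx7 also without WT replicate 1 and that of Smarcb1 also without either of these. A second Dnmt3a probe, just below the array mean, had a z ratio of 0.28. Of the splicing factors, Snrpe, a core Sm protein, was higher at 1.84, 1.70 and 1.64 in WT and 2.003, 1.93 and 1.94 in HET, with any array left out. Prpf4b was also called higher, and Lsm14a and Srsf10 lower, each lost when certain arrays were left out. With Snrpe these were 4 of 54 expressed probes of the list (7.41%, against 3.26% of all expressed probes). Without the third HET array 2 higher and 3 lower of 55 were called, and with the row-order correction 1 higher and 1 lower.

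The remaining lists had few calls. Rab14, a GTPase of endosomes, was higher (0.702 ± 0.0307 and 0.867 ± 0.112), Stx3, a SNARE, was lower (0.295 ± 0.102 and 0.130 ± 0.0674), and the mitochondrial carrier Slc25a13 was lower (1.74 ± 0.0423 and 1.58 ± 0.0910, SD, n = 3). Hspe1 and Hspbap1, chaperone-related proteins, were the lower members of 58 heat shock probes. Agpat1, which makes phosphatidic acid, was higher at 2.25, 2.28 and 2.07 in WT and 2.40, 2.45 and 2.44 in HET, but not without WT replicate 3. Pank3, which starts coenzyme A synthesis, was lower (0.479 ± 0.0838 and 0.311 ± 0.0364). Sparc, a matricellular glycoprotein, had 1.17, 1.30 and 1.24 in WT and 0.903, 1.04 and 1.08 in HET, and its other expressed probes had z ratios of 0.08 and 0.29. Calb1, the calcium buffer calbindin, was called lower on 1 probe (0.271, 0.259 and 0.105 in WT, 0.0224, 0.0410 and -0.0436 in HET), and another expressed probe had a z ratio of -0.49. Zinc finger genes gave Zfp592 higher and Zfp84 lower. The list of protein phosphatases, which does not hold Ctdspl, gave Ppp4r2 alone. In these lists the calls of Rab14, Stx3, Slc25a13, Hspe1, Hspbap1, Pank3, Zfp592 and Zfp84 were lost when certain arrays were left out, and those of Sparc and Calb1 were not.

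Several lists had 0 called probes. They were glutamate receptors and postsynaptic proteins (5 expressed probes), cytokine signalling (14), NF-kappaB and innate immunity (8), immediate early genes (9), aminoacyl-tRNA synthetases (13), ion channels (18), cell cycle and DNA repair (50), cholesterol synthesis (10), oxidative stress defence (20), the circadian clock (6) and the methionine cycle (8). With the row-order correction the methionine cycle (Mat2b), aminoacyl-tRNA synthetases and oxidative stress defence had 1 call each. Nfkbia, the inhibitor induced by NF-kappaB, had a z ratio of -0.08, and Jun -0.11. Anapc7, called higher, is not in the cell cycle list. With so few probes per list, 0 calls does not show that the genotypes were alike.

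**Figure D3:**
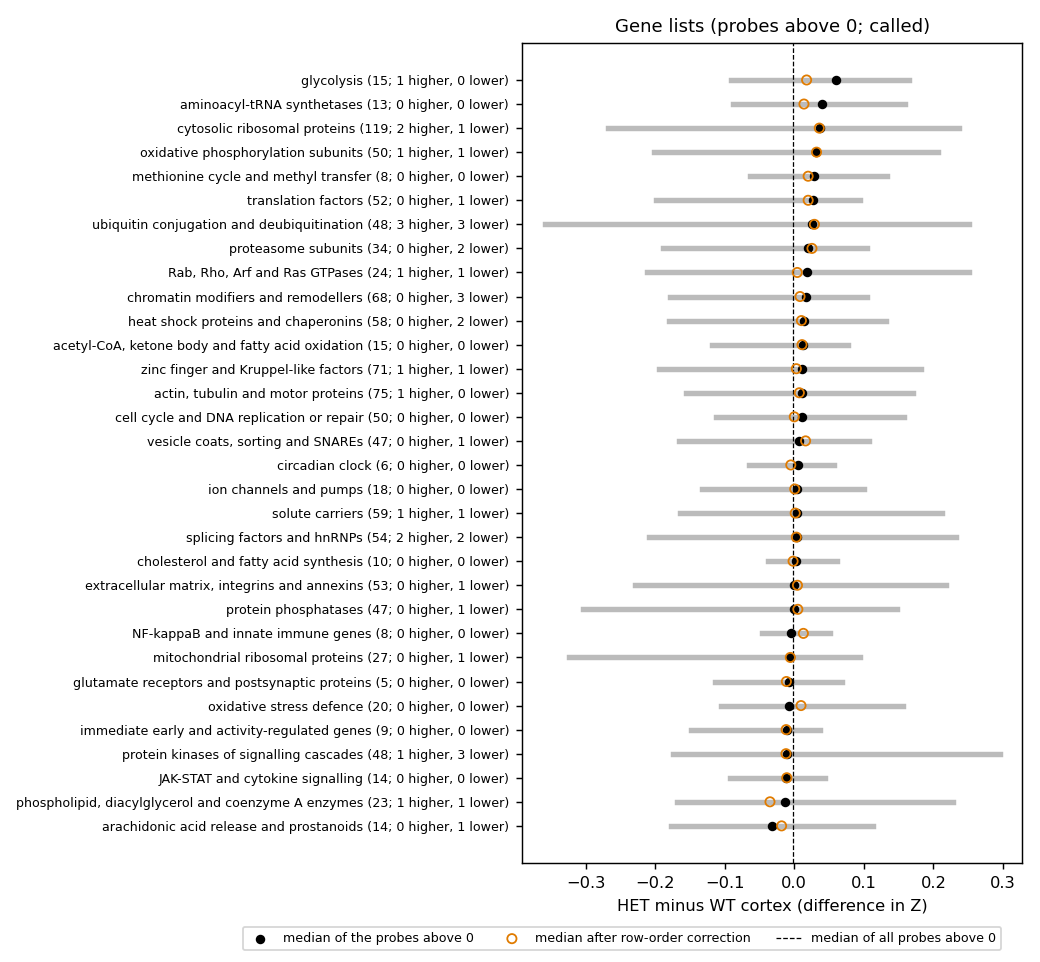
For each gene list with at least 5 expressed probes, the black point is the median HET minus WT difference in Z, the open point the same after the trend along the table was subtracted, the grey line the range of its probes and the dashed line the median of all expressed probes; numbers in parentheses are expressed probes and calls. Glycolysis and ribosomal proteins lie to the right of the dashed line, and no list moves as far as the single called genes.

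Probes for the same gene often differed. Of the called genes, 38 had several expressed probes, all of the same sign in 16 of them. Tram1 had a probe at -2.14, a probe at 2.17 and another at 0.81 in z ratio, a gene singled out after its values were seen. Actb, cytoplasmic actin, was called higher on 1 probe (z ratio 1.59) while its 6 further probes had z ratios of -0.30 to 0.47. For such genes a value belongs to the probe, and which probe reads the gene cannot be told from these files.

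Calls were also unevenly placed along the table. When its rows were divided into 44 equal blocks in table order, the median HET minus WT difference of a block ranged from -0.0400 to 0.0751. The block with the most calls held 22, all higher, or 20% of all higher calls, where an even spread over expressed probes would give 5.80. Immt, Mapk13, Slc6a13, Ndufb10, Polr2d and Sumo2 lie in it. Blocks 4 to 10 held 60 lower and 6 higher calls, Usp29, Mrpl23, Fau, Ctdspl and Plxdc2 among the lower. After a running median in row order was subtracted, 196 probes were called, 68 higher and 128 lower, with 158 of the original calls among them and 9 calls in that block. Of the named probes this ended the calls of Ctdspl, Dnmt3a, Hspe1, Ldha, Mapk13, Mtor, Ndufb10, Pank3, Prpf4b, the second Psmc1 probe, Rab14, Rbm27, Rpl29, Slc25a13, Smarcb1, Srsf10, Stx3, Sumo2, Zfp592 and Zfp84. The z ratio of Rab14 went from 1.54 to 0.873 and that of Rpl29 from 1.68 to 1.05. What places the calls this way was not tested.

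**Figure D4:**
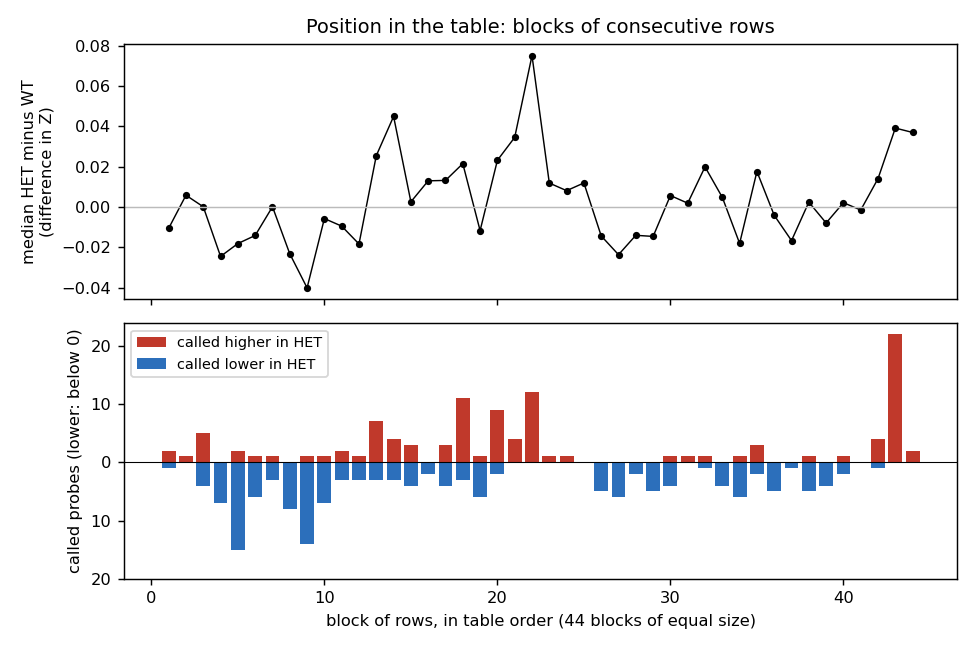
Upper panel, the median HET minus WT difference in Z of all probes, expressed or not, in each of 44 consecutive blocks of rows. Lower panel, the number of probes called higher (above 0) and lower (below 0) in each block. One block near the end holds 22 higher calls and 0 lower calls, and lower calls crowd into blocks 4 to 10.

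The cortex of COX-2 KO mice gave a second genotype for the same genes, measured against the same WT arrays, with 346 of 8003 probes (4.32%) called by the rule. Tiparp lay at 0.524, 0.7001 and 0.676 in KO, between most WT and all HET arrays. Tmod3 lay at 1.94, 2.14 and 2.05, also below each HET array. For Usp29 the KO arrays, at 1.14, 0.961 and 1.04, overlapped WT and stayed above every HET array. Nxf2 had 0.270, 0.345 and 0.297 in KO and Fau 1.94, 1.82 and 1.79, likewise apart from HET. Choosing genes by their HET minus WT difference favours KO values on the WT side of HET. Rpsa had 1.37, 1.42 and 1.27 and Crybg3 1.54, 1.77 and 1.51 in KO, in or above the range of HET. Several other genes were called in the same direction in KO, against the WT arrays that both comparisons share. The KO z ratio beside that of HET was 2.16 and 2.86 for Immt, 1.68 and 1.98 for Slc6a13, and 2.15 and 2.16 for Snrpe. It was -2.33 and -2.83 for Ppp4r2, -1.78 and -2.94 for Bptf, and -1.63 and -1.63 for Mtor. Crybg3, Lsm14a, Ndufb10, Rab14, Rpsa, Scrn3, Smarcb1, Tiparp, Tmod3, Ube2s and Zfp592 were also called in both. Tested directly, KO minus HET passed an adjusted limma p of 0.05 for 0 of 7988 probes (0%), with a smallest adjusted p of 0.210 and 894 probes (11.2%) at an unadjusted p under 0.05, and the study's rule called 252 (3.15%), or 154 without the third HET array. None of these genes was thereby shown to differ between 1 and 2 disrupted copies.

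The hippocampus of HET and WT mice, measured on other arrays, showed the opposite direction at many of the same probes. By the study's rule 499 of 8041 expressed probes (6.21%) were called in HET hippocampus, where 60 (0.746%) also passed an adjusted limma p of 0.05. Of these, 105 were also called in HET cortex, which is 40.2% of the cortex calls and 21.0% of the hippocampus calls, and all 105 were opposite in direction. Of the 261 cortex calls, 211 (80.8%) had a hippocampal mean difference of the other sign, against 59.2% of the 7757 probes expressed in both regions. Without the third cortical HET array these were 121 of 147 (82.3%) against 58.2% of 7763. Across those probes the 2 sets of differences had r = -0.365, a description over probes that share arrays within each region.

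Tmod3 shows the pattern. It was higher in HET cortex, while its hippocampal values were 2.02, 2.10 and 1.91 in WT and 1.64, 1.63 and 1.48 in HET. The difference between regions was 0.795 (SE 0.0943, limma adjusted p = 0.00137). Tmod3, Rbm27, Crybg3 and Rpsa lie in the block of rows with the highest cortical median, 0.0751, where 12 probes were called higher and 0 lower. The hippocampal median of the same block was -0.0718. What table position adds to the values of these genes was not tested. Usp29, lower in HET cortex, was at 0.915, 1.03 and 0.973 in WT and 1.36, 1.29 and 1.51 in HET hippocampus, a difference between regions of -0.774 (limma adjusted p = 0.00590). Mtor moved from 0.0309, 0.0947 and 0.0248 in WT to 0.523, 0.535 and 0.485 in HET hippocampus, the reverse of its cortical values. Alox12 did likewise, from 0.205, 0.273 and 0.255 to 0.613, 0.768 and 0.913.

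Over all probes, the region difference passed an adjusted limma p of 0.05 for 341 of 8011 probes with a mean Z above 0 over the 12 arrays (4.26%), 128 with HET minus WT greater in cortex and 213 with it less. In 339 of the 341 the directions were opposite, against 59.2% of the probes expressed in both regions, although the test itself favours opposite directions. In 285 of the 341 the hippocampal difference was the larger in size, and 130 were also cortex calls. Over all probes the SD of HET minus WT differences was also larger in hippocampus, 0.119 against 0.107 in cortex. The number passing was 190 without cortex WT replicate 1, 223 without cortex HET replicate 2, 207 without cortex HET replicate 3, 179 without hippocampus WT replicate 2, 208 without hippocampus HET replicate 2 and 162 without hippocampus HET replicate 3. With arrays of the same genotype and replicate number in both regions taken as a block, 175 passed, 161 of them among the 341. Of the 33 named probes that passed, 30 did so with this block, and Ctdspl, Plxdc2 and Polr2d did not. Not every cortical gene passed. Immt, Ube2s, Ankle2, Ube2g1 and Ldha did not pass the region test, and the hippocampal mean difference was 0.0108 for Ube2s and 0.00122 for Ankle2. The value of Immt rested on 1 array. Its hippocampal WT arrays were at 1.22, 2.30 and 2.12 and its HET arrays at 2.08, 2.07 and 1.97, and without WT replicate 1 the mean difference went from 0.164 to -0.166, opposite to cortex, and the region test passed. Ndufb10 also passed it without that array.

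Further settings reuse these arrays and are no independent check. With KO arrays in place of WT arrays in each region, which keeps the HET arrays, 38 probes were called in both regions for HET, 35 of them opposite. For KO against WT, which keeps the WT arrays, 60 probes were called in both regions and all 60 were opposite. Of the 346 KO cortex calls, 303 (87.6%) had the other sign in hippocampus, against 66.4% of the 7833 probes expressed in both regions. Across those probes r was -0.469. Leaving out each of the 12 arrays in turn gave 68 to 109 probes called in both regions for HET against WT, of which at most 4 had the same direction. It was 68 without cortex HET replicate 3, 67 of them opposite, the only removal to move the count by over 1.5 times. The labels give no batch for either region, so genotype and batch cannot be told apart.

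A score made from the 261 cortex calls, the mean Z of the higher probes less the mean Z of the lower, gives the same in single arrays. In hippocampus it was 0.259, 0.339 and 0.291 in WT, 0.0210, 0.0214 and -0.0362 in HET and 0.409, 0.185 and 0.228 in KO. The HET arrays lay below all other hippocampal arrays. In cortex the score was 0.125 to 0.170 in WT and 0.522 to 0.610 in HET, which the choice of probes fixes. It was 0.289, 0.412 and 0.355 in KO, and the same choice favours KO scores between those of WT and HET.

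**Figure D5:**
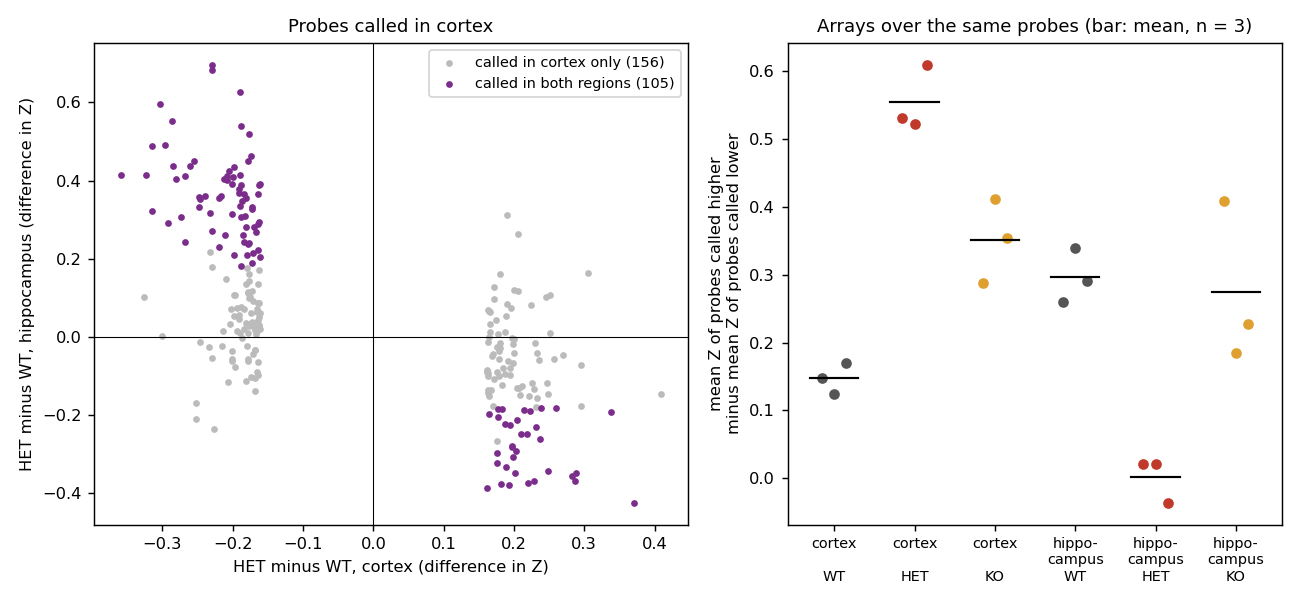
Left, each of the 261 probes called in HET cortex by its HET minus WT difference in Z in cortex (horizontal) and hippocampus (vertical), with the 105 called in both regions in purple, none of which has the same sign in both. Right, the score over these probes for each array of the 6 COX-2 groups, with a bar at the group mean. The HET arrays are the highest of the cortex, which the choice of probes favours, and the lowest of the hippocampus.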

How the data were processed

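RNA of cerebral cortex was measured on custom nylon cDNA membranes. Per the labels and methods, the authors labelled cDNA from 5 µg of total RNA with 33P, imaged the membranes on a phosphoimager, read spot intensities in ArrayPro and scaled these in an Excel macro. The deposited values are a score, the Z score of the natural log intensity on each array, scaled so that, in each part of the table (8448 probes), every array averages 0 with SD 1. Such scaling hides any shift of all probes together. Of the probes, 9663 carry 1 gene symbol in the platform annotation, 436 several and 6797 none. Symbols were updated through gene IDs, of which 9641 of the 9663 were found in RefSeq. Sample groups came from the labels. Arrays have no sequencing depth, and 3 arrays per group limit the precision.

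The study's rule (mean Z above 0, Z test P under 0.05, z ratio beyond 1.5) was computed in Python 3.11.15. The Z test P takes a normal distribution for the difference divided by its standard error, and the z ratio divides the difference by the SD of all differences. limma 3.58.1 (R 4.3.3) was fitted to the 9 COX-2 cortex arrays, since 5 of the 6 COX-1 cortex arrays hold identical values in the first part of the table, and to 18 COX-2 arrays for the region difference, with Benjamini-Hochberg adjustment over expressed probes. The scripts were tested on simulated data. Gene lists (33 of pathways and families, 15 of markers), the members and the tests were chosen with earlier results of these data known. The text names the 10 highest and 10 lowest called genes by z ratio, the 5 smallest limma p, up to 4 called members per list, and the 9 genes of the study's quantitative PCR. Usp37, Usp38, Tram1, Ttr and uncalled list members were chosen after their values were seen. Alternatives were another centring or normalization, filters, a correction for row order, a replicate block and leaving out each array.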

Additional observations from a re-analysis of the deposited data

Results flagged for a closer look

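The HET minus WT values of cortex and hippocampus differed at 341 probes (adjusted limma p under 0.05). These probes were set apart for a closer look because a test of the difference itself passed. Whether equal replicate numbers in both regions mark the same mouse is not given in the sources used here. With genotype and replicate number shared by both regions as a block 175 probes passed, 161 of them among the 341. Among the named genes, the cortical HET minus WT difference less the hippocampal one was positive for Tmod3 (0.795), Rbm27 (0.655), Tdrd9 (0.637), Crybg3 (0.637), Agpat1 (0.596), Tiparp (0.554), Rpsa (0.498), Snrpe (0.410), Polr2d (0.395), Zfp592 (0.367) and Slc6a13 (0.337), in units of Z. It was negative for Ppp4r2 (-0.900), Usp29 (-0.774), Mrpl23 (-0.738), Plxdc2 (-0.722), Alox12 (-0.698), Ctdspl (-0.684), Mtor (-0.639), Bptf (-0.636), Calb1 (-0.629), Lsm14a (-0.620), Arl1 (-0.618), Atp5mpl (-0.593), Scrn3 (-0.581), Csnk1g1 (-0.551), Fau (-0.512), Map4k5 (-0.504), Smarcb1 (-0.501), the Psmc1 probes (-0.495 and -0.417), Nxf2 (-0.427), Sparc (-0.408) and Hspe1 (-0.390). Every one of these genes was called in cortex, and in each the hippocampal mean difference had the other sign, which the test itself favours. Of these 33 probes, 30 also passed with the block, and Ctdspl, Plxdc2 and Polr2d did not. Leaving out any 1 of the 12 arrays kept 28, those 3 being lost without most arrays and Sparc and Zfp592 without hippocampus HET replicate 3. Tmod3, Rbm27, Crybg3 and Rpsa share 1 block of rows, with a median of 0.0751 in cortex and -0.0718 in hippocampus. Most of the hippocampal differences at the 341 probes, 285, were larger in size than the cortical ones. Over all probes the SD of HET minus WT differences was also larger in hippocampus, 0.119 against 0.107. What goes with the difference between regions was not tested.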

How the results depend on the processing

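The 261 calls in HET cortex became 262 with median centring, 270 with quantile normalization, 196 with the row-order correction, 246 with the SD taken within each part of the table, 278 with a limma p instead of that of the Z test and 176 with a mean Z above 0.5. They became 767 with no filter on mean Z, 71 with a z ratio beyond 2, 165 with the Z test P adjusted, and 0 with no division of the z ratio by the SD of all differences. Leaving out 1 array gave 147 (without HET replicate 3) to 291. Counted by gene symbol, an alternative chosen after seeing the data, there were 143, and 239 without the block of rows with the most calls. Same-numbered WT and HET arrays had deviations that correlated at r of 0.0940, 0.0521 and 0.150, and differently numbered ones at -0.199 to 0.122. Whether the numbers pair the arrays was not settled by this check. With the replicate number as a block, a limma p in the rule gave 282 calls, and 0 probes passed the adjusted limma p, as in every other alternative for HET against WT. For KO against HET, 0 calls became 2 with no filter, 1 with an intensity trend and 0 to 1 with an array left out (1 without HET replicate 3). The 341 region differences became 541 with no filter, 278 with a mean Z above 0.5, 337 with quantile normalization, 502 with the row-order correction, 175 with a block for genotype and replicate number shared by both regions, and 162 to 308 with an array left out. The 105 probes called in both regions became 103 with the row-order correction, 38 with null arrays as the reference, and 68 to 109 with an array left out, all chosen after seeing the data. Of 55 named probes, 20 were not called with the row-order correction, 18 with the adjusted Z test P, 16 with a mean Z above 0.5 and 34 with some array left out. Ahcy changed sign to -0.147 and the Jak1 probe below background to 0.0178 in z ratio with the row-order correction. With an array left out, z ratios ranged from -0.181 to 0.538 for Acly, -0.181 to 0.613 for Acat1, -0.334 to 0.756 for Ahcy, -0.102 to 1.74 for a Jak2 probe and -0.491 to 0.368 for the Jak1 probe below background. The cause was not tested. Signal near the array mean limits genes such as Nxf2, Ppp4r2 and Calb1.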

Other observations

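Of the 16896 probes, 8011 were expressed. Among the rest, not above the array mean, where the study's rule makes no call, 506 probes passed the other 2 conditions of the rule. Some marker genes lay there, singled out after their values were seen. Foxp2, a transcription factor of deep-layer cortical neurons, was at -0.347, -0.391 and -0.355 in WT cortex and -0.626, -0.643 and -0.685 in HET cortex, with no overlap. The other 3 probes of the deep-layer list did not share this, with HET minus WT differences of 0.118 for Sulf2, 0.0261 for Nr4a2 and -0.0148 for Tle4. Pdgfra, the receptor that marks oligodendrocyte precursors, was at -1.59, -1.60 and -1.68 in WT and -2.16, -2.32 and -1.82 in HET, also without overlap. Foxp2 and Pdgfra are single probes at signals the study counts as background. Over all 16896 probes, 15.8% had no overlap between HET and WT arrays.

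The list of endothelial and pericyte markers (4 probes) had array means of 0.308 to 0.369 in WT and 0.205 to 0.279 in HET cortex. Pecam1, an endothelial junction protein, lay at 2.21, 2.24 and 2.24 in WT and 2.09, 2.18 and 2.14 in HET, also without overlap, and Cdh5, endothelial cadherin, lay at -0.870 ± 0.0603 in WT and -1.18 ± 0.154 in HET (SD, n = 3), below background. Esam, another endothelial marker, was not lower, at -0.416 ± 0.0881 in WT and -0.405 ± 0.0146 in HET (SD, n = 3), also below background. Pdgfrb, a pericyte receptor, lay at 0.345, 0.395 and 0.416 in WT and 0.456, 0.405 and 0.416 in HET. None of these was called, and 16.3% of all expressed probes had no overlap between HET and WT arrays.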
